A study of Mus musculus with 2 samples.

Results

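The 35 proneural basic helix-loop-helix (bHLH) and neuronal commitment factors were taken by name from a gene table of the mouse embryonic midbrain, where they are 35 of 43346 measured genes. They were picked by gene symbol and not by their level, and all 35 were found. RNA came from the midbrain of E12.5 embryos of the strain B6NCrl, of mixed sex and labelled healthy, with no treatment or transgene. Replicate 1 was a pool of 120 embryos and replicate 2 a pool of 88 embryos, so each library averages many animals and the spread between animals cannot be seen. The input to each library was 10 ng of RNA above 200 nt, and spike-in RNAs were included. With 1 tissue at 1 stage, the comparisons are between genes and between the 2 pools.

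Proneural bHLH proteins such as the neurogenins pair with E proteins, bind E-boxes in DNA and start the programme that turns a dividing progenitor into a neuron. NeuroD, NSCL and Ebf factors act after them in the newborn neuron, while Id proteins bind E proteins and keep them from DNA. Zinc finger factors of the Myt, Insm and Scratch families act during commitment, and REST represses neuronal genes outside neurons and in progenitors.

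Promoter windows of 4 members are shown, of which Neurog2 and Neurod6 were called different between the pools and Neurog1 and Gadd45g were not. Each window is the 250 bases before the annotated start, 5′ to 3′ on the strand of the gene, from RefSeq (GRCm38.p6), and capitals mark the E-box CANNTG. The windows are chr3:127632886-127633135 on the plus strand for Neurog2, chr13:56252181-56252430 on the minus strand for Neurog1, chr6:55681264-55681513 on the minus strand for Neurod6 and chr13:51846425-51846674 on the plus strand for Gadd45g.
Neurog2: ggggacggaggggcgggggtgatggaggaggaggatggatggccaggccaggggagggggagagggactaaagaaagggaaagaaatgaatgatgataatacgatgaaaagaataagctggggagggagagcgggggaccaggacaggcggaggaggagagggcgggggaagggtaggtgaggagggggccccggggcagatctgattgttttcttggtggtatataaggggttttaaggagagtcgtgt
Neurog1: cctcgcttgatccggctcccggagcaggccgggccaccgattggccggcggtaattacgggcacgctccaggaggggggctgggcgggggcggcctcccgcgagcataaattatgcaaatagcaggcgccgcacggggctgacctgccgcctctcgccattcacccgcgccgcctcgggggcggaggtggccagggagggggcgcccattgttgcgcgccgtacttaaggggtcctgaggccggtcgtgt
Neurod6: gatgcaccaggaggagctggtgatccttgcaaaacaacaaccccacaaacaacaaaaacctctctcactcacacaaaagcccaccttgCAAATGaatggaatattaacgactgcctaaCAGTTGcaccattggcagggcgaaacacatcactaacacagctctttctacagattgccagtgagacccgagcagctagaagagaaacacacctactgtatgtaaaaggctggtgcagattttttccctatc
Gadd45g: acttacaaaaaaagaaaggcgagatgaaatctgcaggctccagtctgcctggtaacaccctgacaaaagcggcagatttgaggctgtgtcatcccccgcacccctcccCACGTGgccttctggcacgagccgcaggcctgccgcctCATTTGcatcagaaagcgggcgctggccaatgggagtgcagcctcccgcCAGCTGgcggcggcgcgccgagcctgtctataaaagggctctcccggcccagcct
The Gadd45g window held 3 E-boxes, which begin at positions -142, -104 and -55 from the start, and the last of them reads CAGCTG. The Neurod6 window held 2, at -162 and -132, and the Neurog2 and Neurog1 windows held 0.

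Promoter windows were found for 25 of the 35 members, 35 windows in all because some genes have several starts. The motif CANNTG, which reads the same on both strands, was in 20 of these 35 windows, or 57.1%, against 66.2% of 32851 windows of all genes. Its form CAGCTG was in 11.4% of member windows and in 4271 of the 32851 windows of all genes. The form CAGATG, or CATCTG on the other strand, was in 20.0% of member windows and 14.4% of all windows. Both forms are also counted among the CANNTG matches. The N-box CACNAG, or CTNGTG, which Hes proteins bind, was in 28.6% of member windows and 36.7% of all windows. These are matches of letters in short windows, and windows of 1 gene can overlap.

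The tissue carried midbrain markers. Otx2, a forebrain and midbrain factor, was at 146.6 TPM in replicate 1, against 141.8 TPM in replicate 2, where TPM is the transcript share scaled by length and library. En1, a midbrain and anterior hindbrain factor, was at 5.90 TPM in replicate 1, against 8.49 TPM in replicate 2. Replicate 1 held 28212923 estimated gene counts and replicate 2 held 36082643.5. Of the 11 forebrain markers listed, 11 were at 1 TPM or more in both libraries, whereas the hindbrain markers other than Gbx2 were below 1 TPM in both.

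Of the 35 members, 30 were at 1 TPM or more in both libraries. By mean TPM, 4 members were at 100 or more, 17 between 10 and 100, 11 between 1 and 10, and 3 below 1. The highest were Gadd45g, a gene of cell cycle exit, the E proteins Tcf12 and Tcf3, and the antiproliferative gene Btg2. The lowest were Ptf1a, Atoh7 and Neurog3. In whole tissue, fewer cells of a type and less RNA per cell cannot be told apart.

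**Figure D1:**
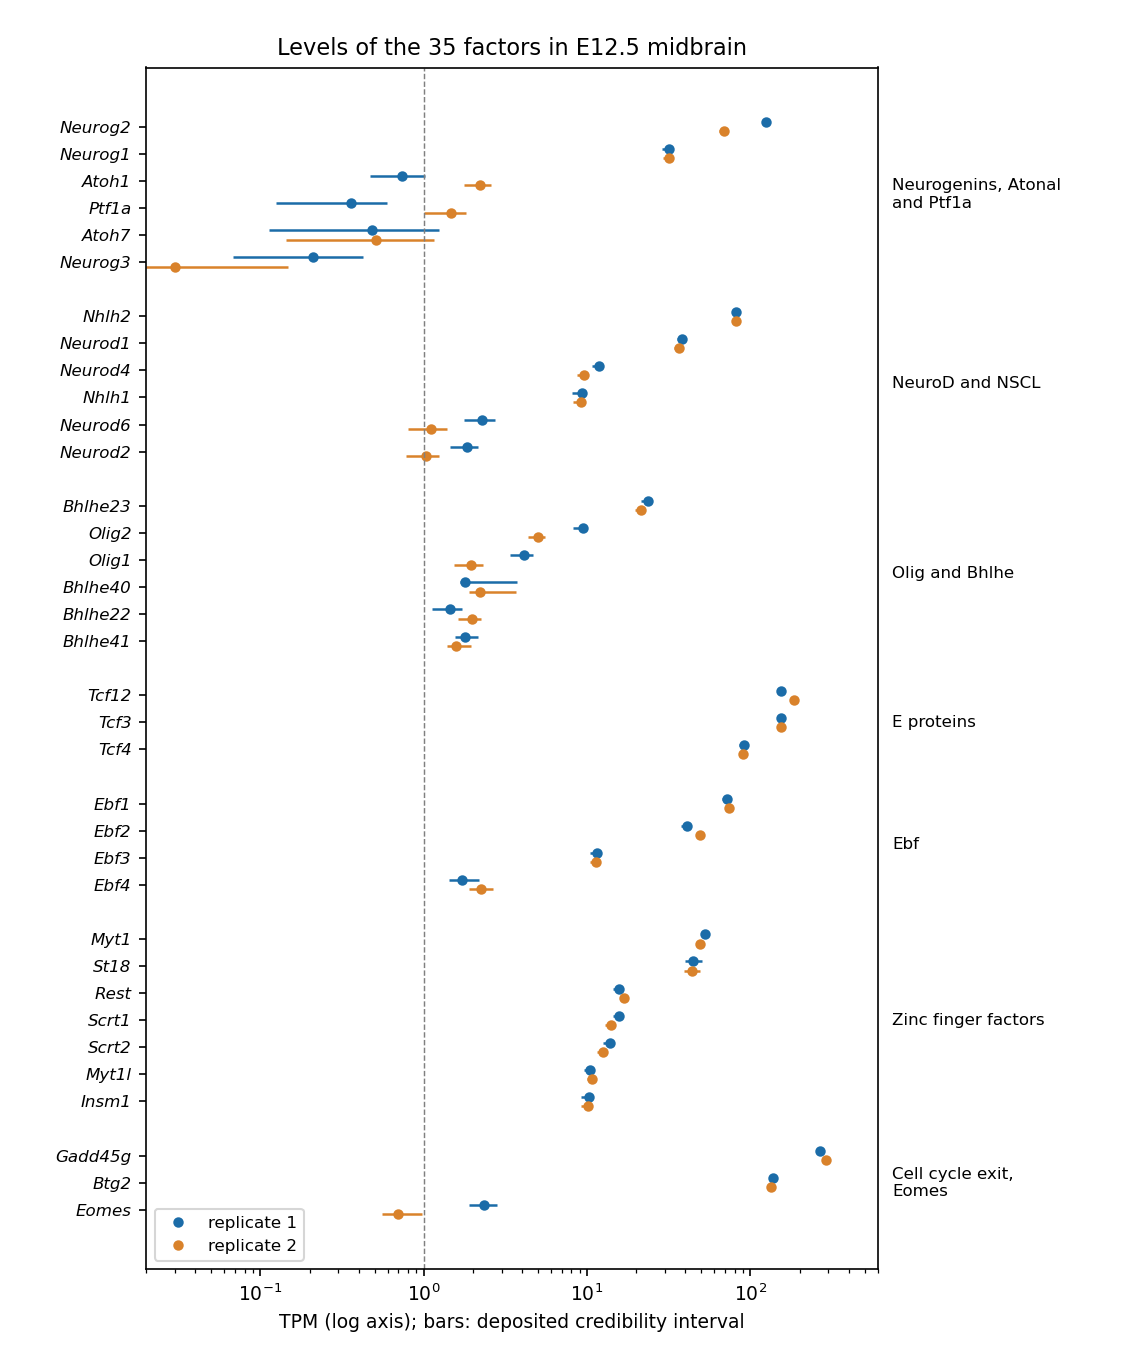
Levels of the 35 factors by role, in TPM on a log axis, with replicate 1 in blue above replicate 2 in orange. Bars are the deposited credibility intervals of each gene, and one is cut at the left edge. A bar need not be centred on its point, and a point can lie outside its bar. For Gadd45g in replicate 1 the bar runs from 252.0 to 267.3 TPM. Gadd45g lies at 268.0 and 292.0 TPM at the top of the range, and the low members Ptf1a, Atoh7 and Neurog3 lie near or below the dashed line at 1 TPM.

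Among the neurogenins, Neurog2 was the most abundant in both pools, but its level differed between them. Neurog2 (chr3:127633135-127635631, ENSMUSG00000027967.7), which drives neurogenesis in progenitors, was at 125.2 TPM in replicate 1, against 68.5 TPM in replicate 2. Neurog1, its close relative, was at 31.6 TPM in replicate 1, against 31.8 TPM in replicate 2. Neurog2 therefore made up 79.7% of neurogenin TPM in replicate 1 and 68.3% in replicate 2, a mean of 74.0 ± 8.11% (SD, n = 2).

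The remaining genes of that group were low. Atoh1, which specifies rhombic lip neurons, was at 0.740 TPM in replicate 1, against 2.20 TPM in replicate 2. Ptf1a, a factor of inhibitory neurons in cerebellum and spinal cord, was at 0.360 TPM in replicate 1, against 1.46 TPM in replicate 2. Both were higher in replicate 2. Atoh7, the factor of retinal ganglion cells, had 3 counts in replicate 1 and 4 in replicate 2, too few to compare. Neurog3, the pancreatic endocrine factor, had 5 counts in replicate 1, against 1 in replicate 2, and a ratio of 6.46 with a 95% counting interval of 0.723 to 305.5. Neurog3 shares 273 exonic bases with Fam241b on the opposite strand, which was at 32.9 TPM in replicate 1, against 34.2 TPM in replicate 2, and the strand used for counting is not given in the sources used here, so its few counts are uncertain.

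The NeuroD and NSCL genes were led by Nhlh2, an NSCL factor of young neurons, at 82.2 TPM in replicate 1, against 81.5 TPM in replicate 2. Its partner Nhlh1 was at 9.28 TPM in replicate 1, against 9.19 TPM in replicate 2, so Nhlh2 made up 89.9% of the pair in each. Neurod1, a neuronal differentiation factor, was at 38.3 TPM in replicate 1, against 36.7 TPM in replicate 2 and made up 70.5% and 75.7% of NeuroD TPM. Neurod4 was at 11.9 TPM in replicate 1, against 9.60 TPM in replicate 2. The NeuroD genes best known from cortical neurons were the lowest of the family. Neurod6 was at 2.28 TPM in replicate 1, against 1.11 TPM in replicate 2. Neurod2 was at 1.84 TPM in replicate 1, against 1.03 TPM in replicate 2.

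Among the Olig and Bhlhe genes, Bhlhe23 was the highest, at 23.6 TPM in replicate 1, against 21.5 TPM in replicate 2. Olig2, a factor of ventral progenitors and later of oligodendrocytes, was at 9.39 TPM in replicate 1, against 5.04 TPM in replicate 2. Olig1 was at 4.10 TPM in replicate 1, against 1.95 TPM in replicate 2. Olig2 over Olig1 was 2.29 in replicate 1 and 2.58 in replicate 2, so both genes were lower in replicate 2 by a similar factor. Bhlhe22, Bhlhe40 and Bhlhe41 lay between 1.44 and 2.20 TPM in both pools. Of the 7 oligodendrocyte markers listed, 4 were at 1 TPM or more in both libraries, among them Mbp at 16.8 TPM in replicate 1, against 16.4 TPM in replicate 2, and Pdgfra, which mesenchyme also expresses, while Mag and Mog were below 1 TPM.

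The E proteins, the common partners of the tissue-restricted bHLH factors, were abundant in both pools. Tcf12 was at 153.9 TPM in replicate 1, against 184.2 TPM in replicate 2, Tcf3 at 155.0 and 153.7 TPM, and Tcf4 at 91.1 and 90.0 TPM, replicate 1 first. Together they reached 400.0 TPM in replicate 1, against 427.9 TPM in replicate 2. The Id genes, their inhibitors, summed to 713.2 TPM in replicate 1, against 740.6 TPM in replicate 2, led by Id3. Id TPM over E protein TPM was 1.78 in replicate 1 and 1.73 in replicate 2, a mean of 1.76 ± 0.0369 (SD, n = 2).

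The Ebf genes, helix-loop-helix factors of postmitotic neurons, formed a graded series. Ebf1 was at 71.8 TPM in replicate 1, against 73.7 TPM in replicate 2. Ebf2 was at 40.6 TPM in replicate 1, against 49.2 TPM in replicate 2. Ebf3 was at 11.4 TPM in replicate 1, against 11.3 TPM in replicate 2, and Ebf4 at 1.72 TPM in replicate 1, against 2.24 TPM in replicate 2. The order of the 4 genes was the same in both pools.

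Of the zinc finger factors, Myt1 was at 52.8 TPM in replicate 1, against 49.2 TPM in replicate 2, and St18, also called Myt3, at 44.4 TPM in replicate 1, against 43.9 TPM in replicate 2. Myt1l, which represses non-neuronal genes, was lower, at 10.4 TPM in replicate 1, against 10.7 TPM in replicate 2. The Scratch repressors were nearly level with each other, with Scrt1 at 15.6 TPM in replicate 1, against 14.0 TPM in replicate 2, and Scrt2 at 13.8 TPM in replicate 1, against 12.6 TPM in replicate 2. Insm1, a factor of basal progenitors and newborn neurons, was at 10.3 TPM in replicate 1, against 10.1 TPM in replicate 2. Rest was at 15.6 TPM in replicate 1, against 16.9 TPM in replicate 2. Its corepressor gene Rcor2 exceeded Rcor1 by a TPM ratio of 11.6 in replicate 1 and 11.1 in replicate 2.

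Gadd45g was the highest member in both pools, and Btg2 ranked 4 by mean TPM, after Tcf12 and Tcf3. Gadd45g was at 268.0 TPM in replicate 1, against 292.0 TPM in replicate 2, and Btg2 at 138.2 TPM in replicate 1, against 133.8 TPM in replicate 2. Eomes, a T-box factor of intermediate progenitors in the cortex, was at 2.33 TPM in replicate 1, against 0.700 TPM in replicate 2. In the order of mean TPM, the libraries of neighbouring genes overlapped for Tcf12 and Tcf3, for Neurog2 and Tcf4, and for Myt1, Ebf2 and St18. They also overlapped for Rest and Scrt1, for Ebf3, Neurod4 and Myt1l, for Nhlh1 and Olig2, and for each neighbouring pair between Olig1 and Atoh7. Some genes further apart overlapped as well. In replicate 2, Neurog2 at 68.5 TPM was below Nhlh2 at 81.5 TPM and Ebf1 at 73.7 TPM, and Neurod4 at 9.60 TPM was below Insm1 at 10.1 TPM. These data do not fix the order among the genes that overlapped.

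Between the pools, 7 of the 32 members whose mean reached 1 TPM were called different, against 3.55% of all genes so tested. For a call, the exact binomial test had to give an adjusted p below 0.05 (Benjamini-Hochberg over 18939 genes with 10 or more counts), the ratio had to reach 1.5-fold and the mean had to reach 1 TPM. That is 21.9% of the members. Neurog2, Neurod2, Neurod6, Olig1, Olig2 and Eomes were higher in replicate 1, where 1.41% of all genes were called. Atoh1 alone was lower, against 2.14% of all genes. The test covers counting error and compares these libraries, not conditions.

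Neurog2 had 4717 counts in replicate 1, against 3263 in replicate 2, and a normalised ratio of 1.87 with a 95% interval of 1.79 to 1.95 and an adjusted p of 3.79e-166 in the exact binomial test. Eomes had 123 counts in replicate 1, against 53 in replicate 2, and a ratio of 3.00 with an interval of 2.16 to 4.22. Olig1 had 150 counts in replicate 1, against 90 in replicate 2, and a ratio of 2.15 with an interval of 1.65 to 2.83. These intervals all lie above 1.5. Olig1 shares 157 exonic bases with Gm15966 on the opposite strand, which was at 1.03 TPM in replicate 1 and listed at 0 in replicate 2, so some Olig1 counts are uncertain. Olig2 had 389 counts in replicate 1, against 264 in replicate 2, and a ratio of 1.90 with an interval of 1.62 to 2.23. Neurod6 had 83 counts in replicate 1, against 51 in replicate 2, and a ratio of 2.10 with an interval of 1.47 to 3.04. Neurod2 had 99 counts in replicate 1, against 70 in replicate 2, and a ratio of 1.83 with an interval of 1.33 to 2.52. The intervals of Neurod6 and Neurod2 reach below 1.5.

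Atoh1 had 26 counts in replicate 1, against 98 in replicate 2, and a ratio of 0.343 with an interval of 0.213 to 0.533. Ptf1a, with 9 counts in replicate 1 and 46 in replicate 2, had a ratio of 0.253 with an interval of 0.109 to 0.523, and was not called because its mean was below 1 TPM. With the edgeR exact negative binomial test, which allows for a spread beyond counting, Neurog2, Olig1, Olig2, Eomes and Atoh1 kept their calls, whereas Neurod6 had an adjusted p of 0.0658 and Neurod2 one of 0.180.

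**Figure D2:**
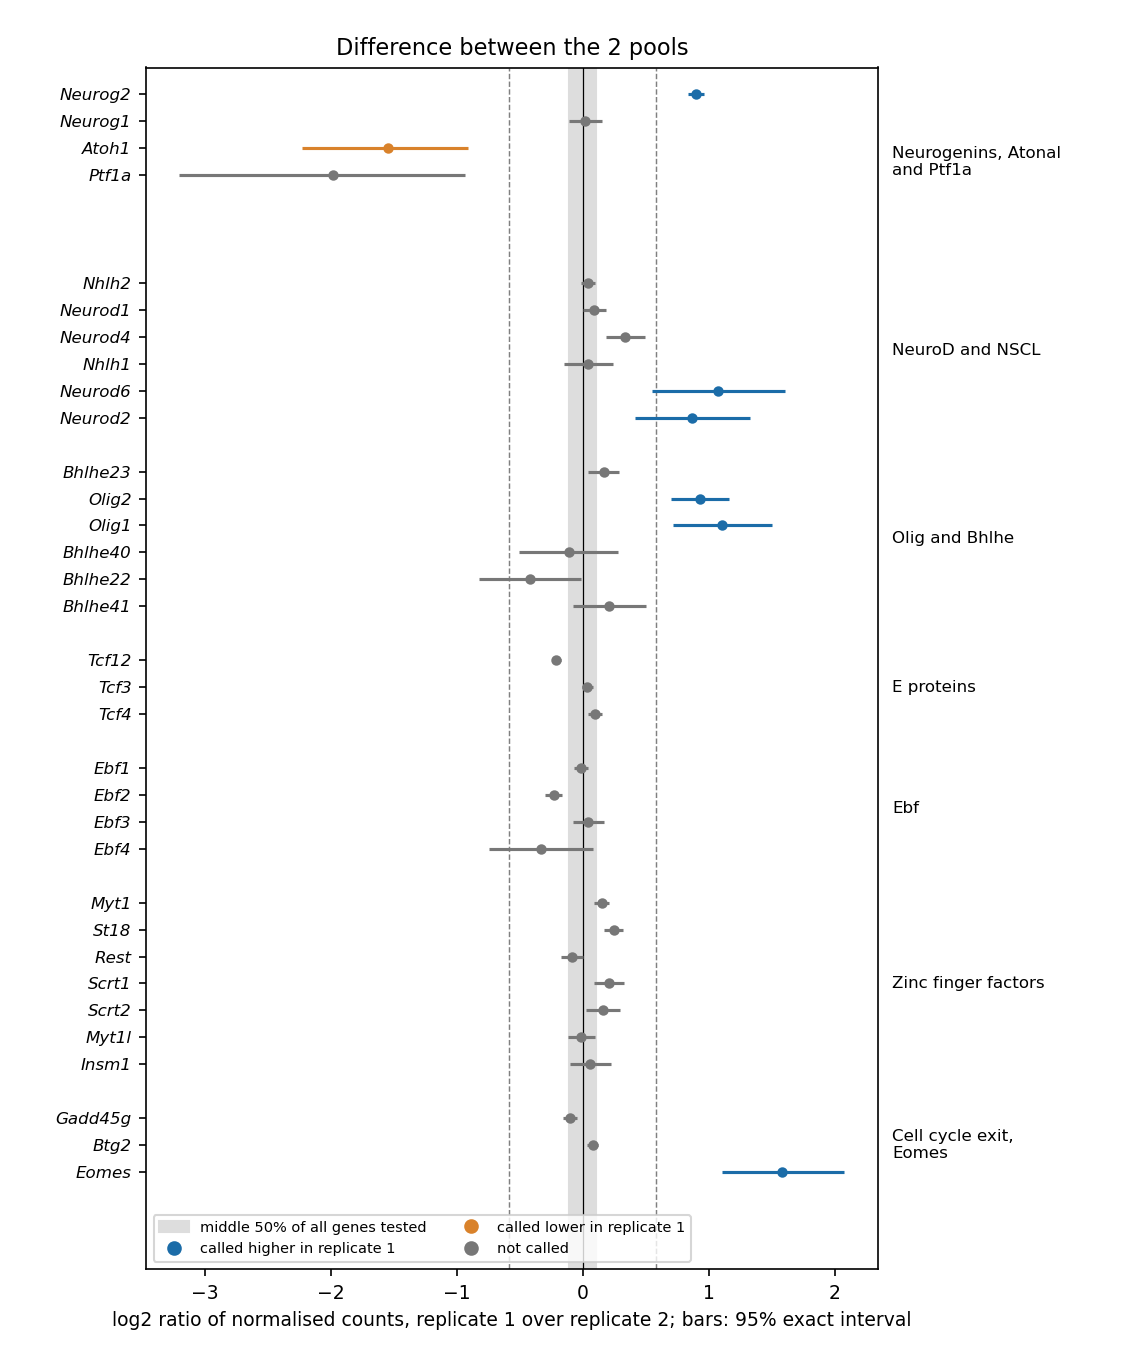
Log2 ratio of normalised counts, replicate 1 over replicate 2, for the 33 members with at least 10 counts, with 95% exact intervals and no added counts. Blue points are called higher in replicate 1, the orange point lower, dashed lines mark 1.5-fold and the grey band holds the middle 50% of all genes tested, so that most other members lie in or near the band.

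Most members differed little. Of the 32 tested, 22 had a ratio within 1.25-fold of 1, or 68.8%, against 84.2% of all genes tested. Neurog1 had a ratio of 1.015 with an interval of 0.928 to 1.11, Nhlh2 one of 1.03 with an interval of 0.991 to 1.07, and Tcf3 one of 1.03 with an interval of 0.995 to 1.06. Tcf12 had a ratio of 0.866 with an interval of 0.845 to 0.887, and Ebf2 one of 0.852 with an interval of 0.814 to 0.893, both beyond counting error but short of 1.5-fold. Neurod4 had a ratio of 1.27 with an interval of 1.14 to 1.41. Without a fold threshold, 17 members passed the exact binomial test at an adjusted p below 0.05, 13 higher and 4 lower in replicate 1, against 26.4% of all genes. Here and below, this share of all genes is not matched for level, and with many counts a small ratio passes the test. The directions of small ratios depend on scaling. When libraries were scaled to spike-in counts, the median of all genes tested shifted by -0.276 on the log2 scale and 15 of 32 members changed sign, among them Tcf4, Btg2, Myt1, St18, Scrt1 and Bhlhe23, whereas the 7 called members kept call and direction. The median log2 ratio of the members was 0.07, against 0.00 for all genes tested, and -0.20 with spike-in scaling.

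Forebrain markers moved with these members. Of 11 forebrain markers, 5 were called higher in replicate 1 and 1 lower, and their summed level was 308.8 TPM in replicate 1, against 208.5 TPM in replicate 2, with none at 0. The count of 5 was 3 with spike-in scaling, 3 at a 2-fold threshold and 3 at a mean of 5 TPM or more, and 10 with no fold threshold. Pax6, also a factor of diencephalon and hindbrain progenitors, was at 60.0 TPM in replicate 1, against 17.7 TPM in replicate 2, Tbr1 at 3.24 and 1.26 TPM, and Emx1 at 6.36 and 2.74 TPM, replicate 1 first. Dlx1 and Nkx2-1 were called higher as well. Mesenchyme markers, led by Col3a1, Col1a1 and Col1a2, summed to 1105 TPM in replicate 1, against 1565 TPM in replicate 2. All 8 had ratios below 1 and 0 were called, against 3.55% of all genes tested. Without a fold threshold, 7 of the 8 passed the exact binomial test at an adjusted p below 0.05, against 26.4% of all genes. The part of these cells or regions in the differences of the members was not tested.

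Among other neural bHLH genes, Olig3, a factor of dorsal and thalamic progenitors, was at 52.9 TPM in replicate 1, against 9.26 TPM in replicate 2, a ratio of 5.84 with an interval of 5.24 to 6.52. Ferd3l was at 1.15 TPM in replicate 1, against 3.57 TPM in replicate 2 and was called lower. Tal2, a midbrain factor of inhibitory neurons, was not called. Of 7 genes tested in this list, 1 was called in each direction. Of 6 cranial ganglion markers tested, 1 was called in each direction. Among them Pou4f1, also a midbrain gene, was the highest and was not called, and Isl1 was called higher, at 31.3 TPM in replicate 1, against 17.3 TPM in replicate 2.

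No gene was called in the Id, Hes and Hey list, the proneural target list or the REST lists. Over all genes tested 3.55% were called, so 0 calls in lists of this size are close to that share. Of the NeuroD members, Neurod2 and Neurod6 were called higher in replicate 1, while Neurod1 and Neurod4 were not called. Neurod2 and Neurod6 lost their calls in the edgeR exact negative binomial test. A link between these genes and the level of Neurog2 was not tested. Of 11 Id, Hes and Hey genes tested, 0 were called, and the highest, Hes5, a Notch target, was at 642.8 TPM in replicate 1, against 717.0 TPM in replicate 2. Of 18 proneural targets, 0 were called, and the Notch ligand gene Dll1 was at 67.6 TPM in replicate 1, against 68.7 TPM in replicate 2. Cdkn1c, Sox11 and Rnd3 were the highest of them. Of 14 REST corepressor genes, led by Hdac2, Hdac1 and Sin3b, 0 were called, and 0 of 17 neuronal REST targets, led by Stmn2, Nefm and Syt4. The median log2 ratio was -0.13 for the Id, Hes and Hey genes, 0.06 for the proneural targets and 0.15 for the REST targets. Without a fold threshold, 7 of the 11, 8 of the 18 and 9 of the 17 passed the exact binomial test at an adjusted p below 0.05, against the 26.4% of all genes.

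**Figure D3:**
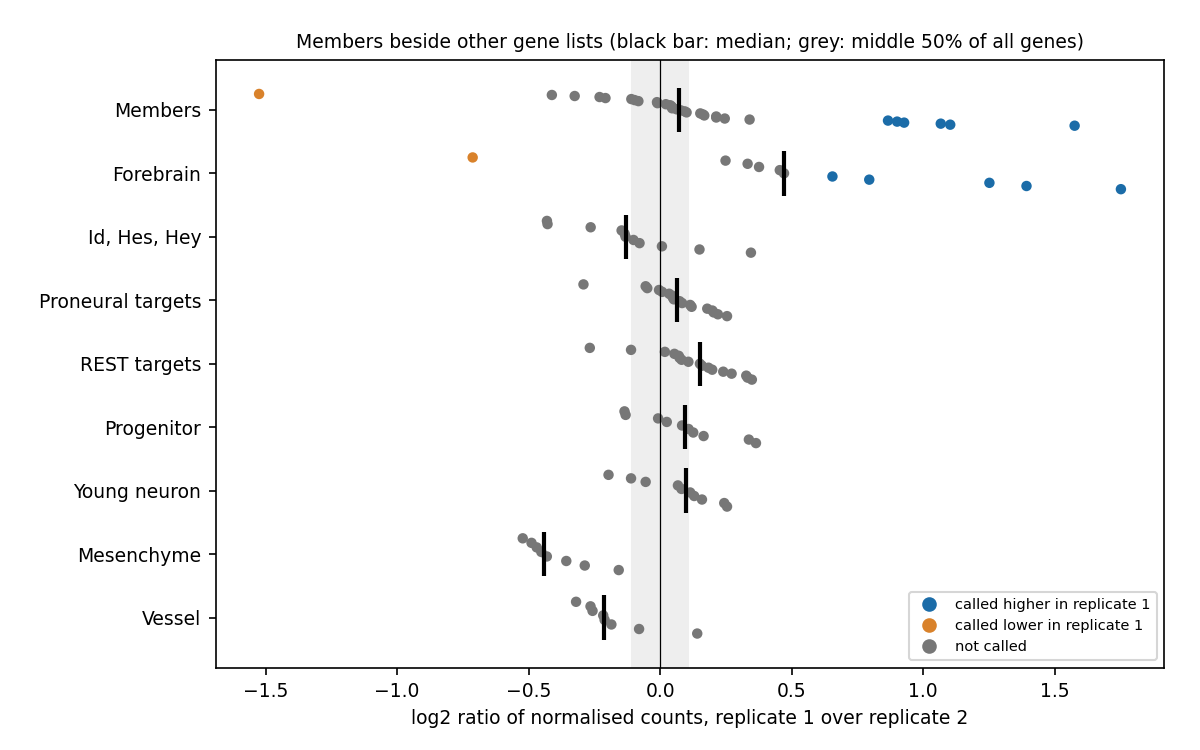
Log2 ratio, replicate 1 over replicate 2, of each tested gene in the member list and 8 other lists, with the median as a black bar and the middle 50% of all genes in grey. Members and forebrain markers hold the called genes. No proneural or REST target is called, against 3.55% of all genes tested, with Cdkn1c at -0.29 and Snap25 at 0.35 near their extremes.

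Of 10 progenitor genes and 10 young neuron genes, 0 were called in each list, against 3.55% of all genes tested. Without a fold threshold, 8 progenitor and 9 young neuron genes had an adjusted p below 0.05 in the exact binomial test, against 26.4% of all genes. These lists hold abundant genes, and Tubb3 passed at a ratio of 1.048, so the excess over all genes may reflect count depth. The young neuron tubulin Tubb3 was at 929.6 TPM in replicate 1, against 906.2 TPM in replicate 2, and the progenitor filament gene Vim at 965.3 TPM in replicate 1, against 994.9 TPM in replicate 2. Of 8 vessel markers, led by Egfl7, Cldn5 and Kdr, 0 were called, which is close to the 3.55% of all genes. Their summed level was 163.0 TPM in replicate 1, against 189.8 TPM in replicate 2. Without a fold threshold, 5 of these 8 passed the exact binomial test at an adjusted p below 0.05, and 7 of the 14 REST corepressor genes. Of the retina markers, Rax was the highest, at 1.53 TPM in replicate 1, against 2.38 TPM in replicate 2, and of the B cell markers, Pax5, also an isthmus gene, at 4.88 TPM in replicate 1, against 8.14 TPM in replicate 2.

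The members also differed in how many transcripts they use. Of the 35, 19 have 1 annotated transcript and 16 have several, and 14 of these 16 had the same leading transcript in both libraries, or 87.5%, against 90.4% of 10178 such genes. The leading transcript held a median of 56.6% of the gene in members, against 68.2% in all such genes. Rest was nearly a single transcript, with Rest-201 at 94.3% in replicate 1 and 94.4% in replicate 2. Isoform shares are the authors' estimates and have no test.

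By the deposited estimates, most of Tcf12 was assigned to transcripts annotated with an internal start. Start use itself was not measured. The 4 transcripts that start between chr9:71895985-71896396 (mm10, minus strand) held 56.2% of the gene in replicate 1 and 61.1% in replicate 2, and those that start at the upstream promoter, chr9:72109724-72111871, held 38.9% in replicate 1 and 34.5% in replicate 2. The internal form codes for a shorter protein, with a coding length of up to 1608 bases, against 2118 for the long form. Tcf4 showed the other balance, with its upstream starts at 67.7% in replicate 1 and 65.5% in replicate 2 and a shorter internal form at 25.3% in replicate 1 and 27.6% in replicate 2. The annotated length of the main internal form of Tcf4 is 2437 bases in GENCODE M21, against 1815 in the deposited table, so names and lengths across the annotations are approximate there. Tcf3 carries a pair of alternative coding exons. Transcripts with the exon at chr10:80412827-80413062 held 47.1% of the gene in replicate 1 and 51.5% in replicate 2, and those with the exon at chr10:80410398-80410624 held 37.1% in replicate 1 and 34.3% in replicate 2.

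St18 had a normalised count ratio of 1.19 with an interval of 1.12 to 1.25, beyond counting error but short of 1.5-fold, while its TPM was close in the pools. Counts, unlike TPM, are not scaled by length, and the deposited length of St18 was 3565.4 in replicate 1 and 3117.2 in replicate 2. The transcript shares of St18 differed more. St18-213 was at 17.1 TPM in replicate 1, with a deposited interval of 13.7 to 17.6 TPM. In replicate 2 it was at 9.14 TPM, and the interval was 6.23 to 10.3 TPM. St18-201 was at 1.49 TPM in replicate 1, with an interval of 0.221 to 2.53 TPM. In replicate 2 it was at 5.07 TPM, and the interval was 3.31 to 6.94 TPM. The intervals of each transcript do not overlap between the pools, and both transcripts have the same coding length of 3135 bases. The leading transcript was St18-213 in replicate 1 and St18-212 in replicate 2. St18 was not alone, since intervals also did not overlap for 2 transcripts each of Eomes and Tcf12 and 1 each of Ebf2, Gadd45g and Scrt1. The share of such transcripts over all genes was not computed. Ebf4 also changed its leading transcript, but there the intervals overlapped.

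**Figure D4:**
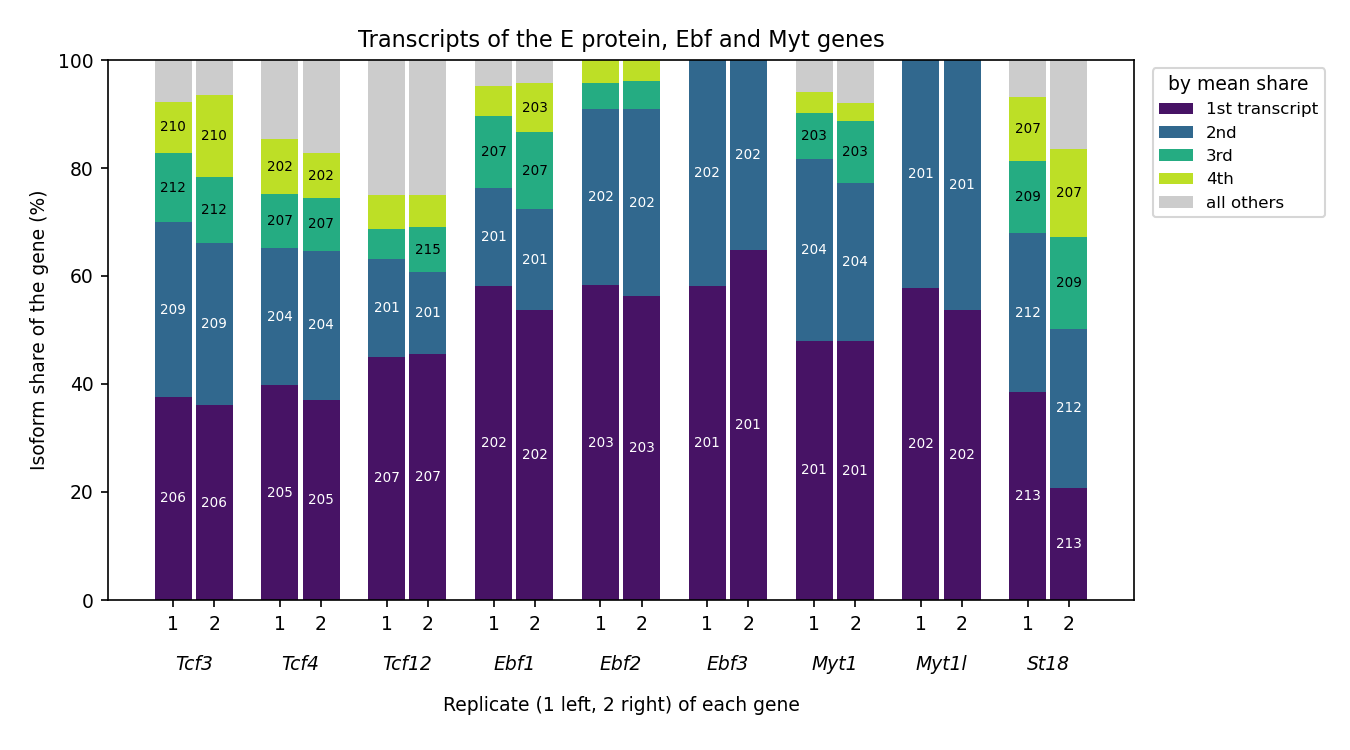
Share of each gene's abundance held by its leading transcripts, in percent, with replicate 1 left of replicate 2 for 9 members with several transcripts. Transcript numbers are those of GENCODE, and St18-213 takes 38.5% in replicate 1 and 20.8% in replicate 2.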

How the data were processed

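Total RNA-seq of E12.5 midbrain was analysed from 2 libraries, which form 1 group. Per the file headers, the authors deposited expected counts for genes and transcripts, which are estimates and can hold fractions. The deposited TPM values were normalised by the authors to effective length and library. The authors' isoform percent splits each gene's TPM over its transcripts, and the deposited credibility bounds are a signal on the TPM scale, per the file headers. The genome was mm10 with annotation M4 per the deposited files, while the aligner, its settings and the strand were not given in the sources used here. The linked kit manual is for a SMARTer Ultra Low kit, per the labels.

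GENCODE M21, also on mm10, supplied names and positions for 42462 of 43346 gene identifiers, and promoter windows came from RefSeq (GRCm38.p6). Spike-ins, 4.14% and 3.48% of counts, and 26248 numbered features entered neither library sizes nor tests. Counts were rounded, and TMM factors (edgeR 4.0.16, R 4.3.3) of 0.995 and 1.005 came from genes with at least 10 counts summed. For log2 ratios 0.5 counts were added to both libraries. The 95% interval of a ratio is exact binomial and covers counting error only. The edgeR negative binomial test used 1 common dispersion with an intercept only (coefficient of variation 0.0939). The labels call the pools biological replicates of 1 donor record, and differences between them may be technical. The binomial p-values set the difference between these libraries against counting error alone, with no estimate of the spread between replicates.

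The members, gene lists and tests were chosen with earlier results of these data known. The text names all members and, of other lists, mainly the 3 highest by mean TPM and those called; Otx2, En1 and a few genes were added after their values were seen. A few genes that this rule takes are not reported here, and they remain in the counts and medians of their lists. Alternatives were DESeq2 1.42.0 size factors, total and spike-in counts, other thresholds and pseudocounts, posterior mean TPM, rescaled TPM, TMM-scaled CPM and leaving out each library. The steps were tested on simulated data. Python 3.11.15 was used with scipy 1.17.1, numpy 2.4.6, matplotlib 3.10.9 and pandas 2.3.3.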

Additional observations from a re-analysis of the deposited data

How the results depend on the processing

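The number of genes called was 539, of which 214 were higher and 325 lower in replicate 1. Scaling to spike-in counts gave 1328 calls, with 119 higher and 1209 lower. The edgeR exact negative binomial test gave 201, with 93 and 108. A 2-fold threshold gave 213, with 102 and 111, no fold threshold 4009, with 2136 and 1873, and a mean TPM of at least 5 gave 206, with 70 and 136. For the members, 6 were higher and 1 lower. A 2-fold threshold left 3 higher, no fold threshold gave 13 higher and 4 lower, a mean TPM of at least 5 left 2 higher and 0 lower, and spike-in scaling gave 3 lower, since Bhlhe22 and Ebf4 joined Atoh1. DESeq2 size factors, total counts and other count filters kept the member counts within 1.5 times.

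With spike-in scaling the median log2 ratio of the members was -0.20, of the other sign. The members whose ratio changed sign there were Neurog1 (-0.25), Neurod1 (-0.18), Nhlh1 (-0.23), Nhlh2 (-0.23), Bhlhe23 (-0.11), Bhlhe41 (-0.062), Ebf3 (-0.23), Tcf3 (-0.24), Tcf4 (-0.18), Insm1 (-0.21), Btg2 (-0.20), Myt1 (-0.12), St18 (-0.030), Scrt1 (-0.062) and Scrt2 (-0.11). All genes shifted there, and the cause was not tested. The median member level was 11.4 TPM, 14.4 TPM when rescaled over nuclear protein-coding genes, 30.9 CPM without length normalisation, and 11.3 to 11.9 TPM when each library was left out. Leaving out each library gave 31 to 32 members detected and a median leading share of 55.0 to 58.1%. No paired analysis was possible because there is 1 group, with 1 library of each replicate number. Members below 1 TPM rest on few counts, and differences there are limited by depth.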
